A study of Mus musculus with 12 samples.

Results

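The genes examined here code for proteins that splice, package and accompany messenger RNA: the SR proteins (symbols starting with Srsf), the heterogeneous nuclear ribonucleoproteins (Hnrnp), the proteins of the small nuclear ribonucleoproteins (Snrp) and the numbered RNA-binding motif proteins (Rbm). Members were the protein-coding rows of the count and TPM tables whose symbol starts with Hnrnp or Snrp, or with Srsf or Rbm and a digit, leaving out Snrpn. This gave 79 of 32692 gene rows, of which 11 were Srsf, 20 Hnrnp, 11 Snrp and 37 Rbm genes. They were measured by RNA-seq in kidneys of mice at day 8, in 5 libraries, and at day 0, in 6 libraries, to find transcripts that differ between these ages of the neonatal period. All mice were wild type and untreated, with no further strain or allele given in the labels. Libraries held total RNA depleted of ribosomal RNA, and 1 further day 8 sample was not analysed here. The labels give neither sex nor litter and do not tie libraries to separate animals, so that a p-value here reflects the spread among libraries, which may be technical.

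Introns are removed by the spliceosome, a machine built from small nuclear RNAs and their proteins. The Sm proteins, encoded by Snrpb, Snrpd1, Snrpd2, Snrpd3, Snrpe, Snrpf and Snrpg, form a ring around most of these RNAs, while Snrpa, Snrpc, Snrpa1 and Snrpb2 code for proteins specific to the U1 or U2 particle. SR proteins bind exons and mostly promote their inclusion, and hnRNP proteins coat nascent transcripts and often oppose inclusion, so that the balance between both groups is known to set which exons a cell keeps. Many SR and hnRNP genes also hold exons whose inclusion sends the transcript to decay, a known feedback on their own level. The mouse kidney still forms nephrons at birth and stops within days, while its tubules mature.

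Library totals lay between 18222170 and 24428652 estimated counts. Markers of mature kidney segments were abundant at both ages: 9 of them, such as Umod and Slc34a1, summed to 10385 to 11198 CPM at day 8 and 4783 to 5634 CPM at day 0 (CPM, counts relative to library size, scaled by TMM factors). The sum of 6 nephron progenitor markers was 17.6 to 30.5 CPM at day 8 and 130.0 to 151 CPM at day 0, and that of 15 cell division genes 871 to 1217 CPM at day 8 and 1390 to 1642 CPM at day 0. All 15 division genes passed the test as lower at day 8, with a median log2 fold change of −0.57, and on TPM 13 were lower. The share of all tested genes called lower was 30.1% from counts and 14.7% on TPM. Traces of neighbouring tissue differed between libraries: 9 fat markers summed to 95.4 to 138 CPM in day 8 libraries 3 to 5 and to 50.3 to 66.4 CPM in all others, while 9 liver markers summed to 16.1 to 97.8 CPM at day 8 and 9.55 to 281 CPM at day 0, with at least 170 CPM in day 0 libraries 1 to 3. The 15 skeletal muscle markers summed to 3.50 to 6.27 CPM at day 8 and 7.23 to 34.5 CPM at day 0. Sums for 8 leukocyte markers were 69.5 to 77.8 CPM at day 8 and 55.5 to 61.8 CPM at day 0, for 10 red blood cell markers 24.2 to 53.4 CPM at day 8 and 30.6 to 64.3 CPM at day 0, and for 9 adrenal markers 2.60 to 3.49 CPM at day 8 and 2.74 to 6.41 CPM at day 0. No gene of these lists was at 0 in every library. In whole kidneys, fewer cells of a type and less RNA per cell cannot be told apart, and the part that these shifts have in the results was not tested.

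Promoters of 3 members are shown because these genes carried the largest falls of 2 families and the sole rise among SR genes. The windows come from RefSeq on GRCm38.p6 and run from 250 bases before to 50 bases after the annotated start, 5′ to 3′ on the gene's strand. Capitals mark the GC-rich letters GGCGGG, the ETS core CCGGAAG and the CCAAT box CCAAT on either strand. The Hnrnpa1 window lies at chr15:103240147-103240446 on the plus strand, the Snrpf window at chr10:93589609-93589908 on the minus strand and the Srsf5 window at chr12:80945249-80945548 on the plus strand.
The genes themselves span chr15:103240432-103246692 (Hnrnpa1), chr10:93583029-93589706 (Snrpf) and chr12:80945504-80950507 (Srsf5) in the GENCODE annotation of GRCm38.
Hnrnpa1: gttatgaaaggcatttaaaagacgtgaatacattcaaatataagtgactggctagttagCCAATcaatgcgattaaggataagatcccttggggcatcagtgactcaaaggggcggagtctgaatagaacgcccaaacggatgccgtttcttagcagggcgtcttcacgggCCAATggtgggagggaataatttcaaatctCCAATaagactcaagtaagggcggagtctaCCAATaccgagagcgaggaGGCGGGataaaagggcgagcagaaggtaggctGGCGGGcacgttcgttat
Snrpf: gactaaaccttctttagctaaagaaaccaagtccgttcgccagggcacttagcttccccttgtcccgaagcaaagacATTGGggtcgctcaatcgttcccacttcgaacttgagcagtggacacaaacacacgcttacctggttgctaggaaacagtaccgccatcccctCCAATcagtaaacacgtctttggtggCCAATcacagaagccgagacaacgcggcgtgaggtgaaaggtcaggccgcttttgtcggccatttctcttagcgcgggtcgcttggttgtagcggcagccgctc
Srsf5: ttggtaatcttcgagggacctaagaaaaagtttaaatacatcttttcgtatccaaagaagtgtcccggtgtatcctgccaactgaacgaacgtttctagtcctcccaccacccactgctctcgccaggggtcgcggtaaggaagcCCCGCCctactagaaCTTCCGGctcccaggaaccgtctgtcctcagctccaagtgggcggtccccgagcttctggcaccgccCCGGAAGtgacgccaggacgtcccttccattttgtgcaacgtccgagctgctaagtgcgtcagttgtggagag
Hnrnpa1 held 2 matches of GGCGGG and 4 CCAAT boxes, Snrpf 3 CCAAT boxes, and Srsf5 1 match of GGCGGG and 2 ETS cores.

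Windows were found for 67 of the 79 members. The letters GGCGGG stood in 17 of 18 Hnrnp windows (94.4%), 10 of 11 Srsf windows (90.9%), 19 of 29 Rbm windows (65.5%) and 4 of 9 Snrp windows (44.4%). The shares were 65.9% of 10926 tested protein-coding genes and 37.9% of all 27025 windows. The CCAAT box stood in 13 of 18 Hnrnp windows (72.2%), 13 of 29 Rbm windows (44.8%), 4 of 11 Srsf windows (36.4%) and 3 of 9 Snrp windows (33.3%), against 42.6% of tested protein-coding genes and 41.1% of all windows. The ETS core stood in 4 of 9 Snrp windows (44.4%) and 4 of 11 Srsf windows (36.4%), but in 2 of 18 Hnrnp windows (11.1%) and 5 of 29 Rbm windows (17.2%), which makes 22.4% of all member windows, against 18% of tested protein-coding genes and 9.93% of all windows. GC-rich windows without a TATA box are common among genes used by most cells. The letters TATAAA, sought anywhere in the window on either strand, stood in 13.4% of member windows. They stood in 9.11% of tested protein-coding windows and 15.7% of all windows. These are matches of letters, given as a description.

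From counts with TMM scaling, most of these genes fell after birth, and few rose. On the TPM scale, described further below, 33 of 77 members were called lower and 2 higher. Of the 78 members that passed the filter on low counts, 59 were lower at day 8 (edgeR quasi-likelihood test, Benjamini-Hochberg adjusted over all 18763 tested genes, threshold 0.05), 3 were higher and 16 passed in neither direction. Both ages changed widely: 30.1% of all tested genes were called lower and 27.5% higher, and among 13992 tested protein-coding genes 33.0% were lower and 30.9% higher. Against this, 75.6% of the tested members were lower and 3.85% higher. Their median log2 fold change was −0.33, and that of all tested genes was −0.01. Rbm44, a gene known from germ cells, was the member that did not pass the filter, with at most 0.0433 CPM in any library.

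The families differed in how far they moved, as the plot of all fitted changes shows. From counts with TMM scaling, all 11 Snrp members and all 20 Hnrnp members were lower at day 8, with medians of −0.57 and −0.35 on the log2 scale, while on the TPM scale 10 and 11 of them were called and Hnrnpul2 had a value above 0. Among Srsf genes 8 of 11 were lower and 1 was higher, with a median of −0.38. Among Rbm genes 20 of 36 were lower, 2 were higher and 14 passed in neither direction, with a median of −0.19. Without day 8 libraries 3 to 5, those with the most fat transcripts, only libraries 1 and 2 of that age remained, so that power was lower. In that fit 13 Rbm and 17 Hnrnp genes were called lower, with no call for Hnrnph2, Hnrnph3 and Hnrnpul2. No called member changed its sign there. Without day 0 libraries 1 to 3, those with the most liver transcripts, 19 Hnrnp genes were called lower, without Hnrnph2. The shifts were mostly modest: 3 members, namely Hnrnpa1, Snrpf and Rbm3, fell at least 2-fold. In 53 members the highest library of one age was below the lowest of the other in CPM, 50 of them lower and 3 higher at day 8, and 40.5% of all tested genes were separate in this way.

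**Figure D1:**
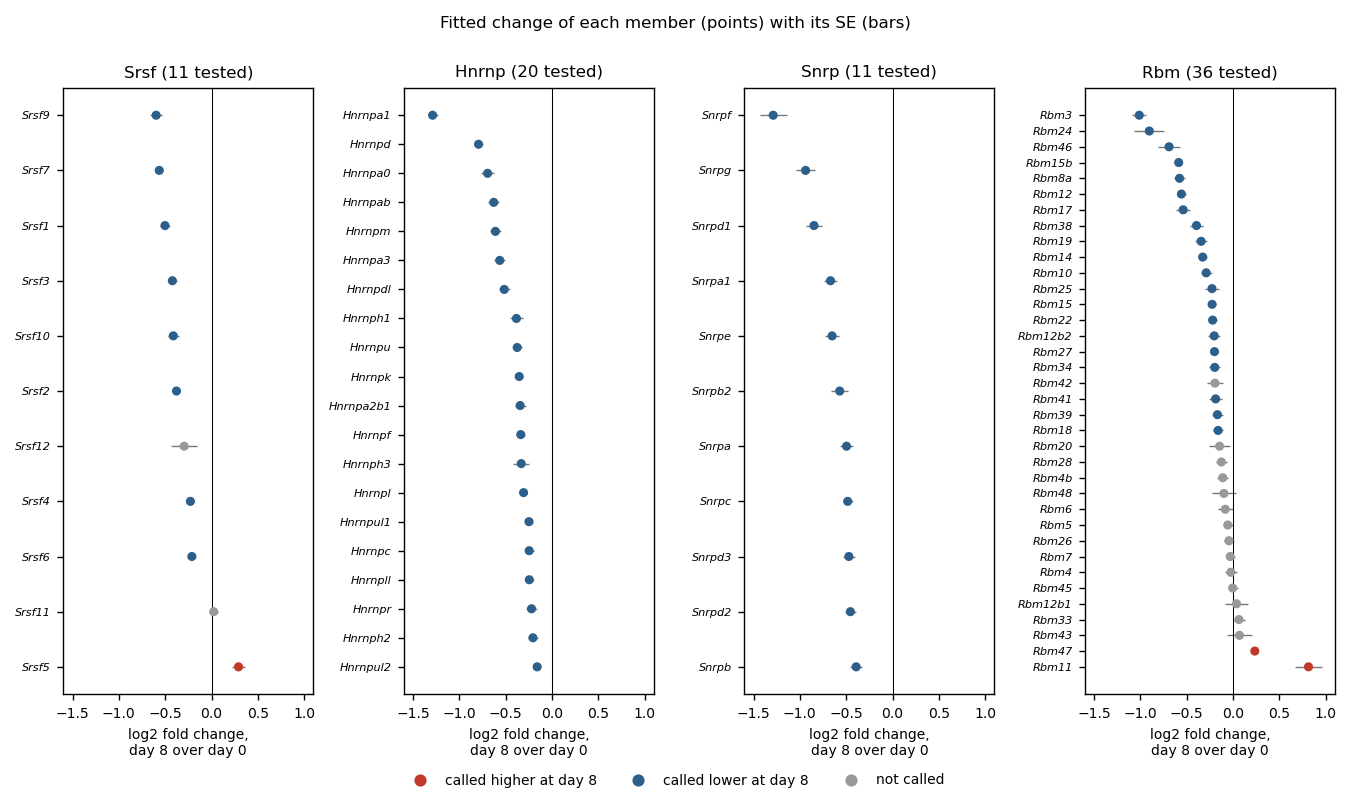
The log2 fold change of day 8 over day 0 is plotted for each of the 78 tested members, 1 panel per family, with bars of 1 SE and colours for the call at an adjusted p of 0.05. All Snrp and Hnrnp points lie below 0 on this scale (Hnrnpul2 is above 0 on TPM), and the members called higher are Srsf5, Rbm47 and Rbm11.

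The Sm ring genes were lower at day 8 on the count scale, most of all Snrpf and Snrpg. Snrpf, which codes for the SmF protein of the ring, had 5.80, 6.58, 3.84, 3.50 and 5.10 CPM in the day 8 libraries, against a lowest, median and highest of 10.1, 12.4 and 13.4 CPM at day 0. Every day 8 library was thus below every day 0 library. Snrpf fell 2.44-fold (log2 fold change −1.29 ± 0.14 SE, edgeR adjusted p = 1.59e-06). Its exons overlap those of Ccdc38 on the other strand, which averaged 0.00878 CPM at day 8 against 0.00865 CPM at day 0.

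Snrpg, the SmG gene, had 13.9, 15.7, 11, 10.1 and 11.2 CPM at day 8, against 20.2, 24.1 and 25.4 CPM (lowest, median, highest) at day 0. The ages were separate, with day 8 libraries 3 to 5 below libraries 1 and 2. It fell 1.92-fold (log2 −0.94 ± 0.10 SE, edgeR adjusted p = 1.69e-06). Snrpd1 codes for SmD1 and averaged 15.4 ± 2.2 CPM at day 8 and 27.8 ± 1.5 CPM at day 0 (SD, n = 5 and 6), a 1.80-fold fall. Snrpe, which codes for SmE, fell 1.57-fold, and had the second highest level of the family per transcript length, at 64.7 ± 4.2 TPM at day 8 and 91.9 ± 4.2 TPM at day 0. The other ring genes fell less: Snrpd3 by 0.47, Snrpd2 by 0.45 and Snrpb by 0.39 on the log2 scale. Snrpb, which codes for SmB, had the highest TPM of the family, 84.9 ± 7.4 at day 8 and 99.5 ± 11.6 at day 0.

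The particle-specific proteins moved the same way. Snrpa1, the U2 A′ protein gene, fell 1.59-fold, to 17.0 ± 2.0 CPM at day 8 against 27.0 ± 1.0 CPM at day 0. Snrpa and Snrpb2 are paralogs that serve the U1 and the U2 particle. Snrpa averaged 42.5 ± 4.0 CPM at day 8 and 59.9 ± 5.3 CPM at day 0, and Snrpb2 averaged 15.8 ± 1.9 CPM at day 8 and 23.4 ± 2.7 CPM at day 0. Their log2 fold changes were −0.50 ± 0.07 and −0.57 ± 0.09 (SE), apart by no more than their errors. Snrpc, the U1 C protein gene, fell by 0.48.

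From counts, genes that build these particles were mostly lower too. The share of all tested genes called lower was 30.1% from counts and 14.7% on TPM. Of 18 genes of small nuclear ribonucleoprotein assembly, 14 passed the test as lower and 0 as higher, with a median of −0.34, and on TPM 6 were lower and 1 higher. They include Xpo1, the export receptor that carries new small nuclear RNA to the cytoplasm (152.7 ± 11.8 CPM at day 8 and 241.6 ± 13.4 CPM at day 0, a 1.58-fold fall), and Clns1a, a chaperone of Sm proteins (−0.48). Smn1, at the centre of the assembly complex, fell by 0.46. Of 48 other core spliceosome genes, 38 were lower and 0 higher, with a median of −0.31, and on TPM 16 were lower and 1 higher. The largest falls there were those of Lsm7 (−0.82) and Lsm5 (−0.79), which belong to the Sm-like ring on U6. Sf1, the branch point binding protein gene with the highest TPM of the list, fell by 0.31 from counts. On TPM, Sf1 was not called (−0.04, limma adjusted p = 0.729).

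Among hnRNP genes, Hnrnpa1 fell furthest. Hnrnpa1 codes for an abundant splicing repressor and RNA shuttle protein. It had 201.5, 179.0, 169.5, 168.2 and 182.2 CPM at day 8, against 396.1, 446.3 and 464.1 CPM (lowest, median, highest) at day 0. The lowest day 0 library was library 6, still well above the highest day 8 library. The gene fell 2.44-fold (log2 −1.29 ± 0.05 SE, edgeR adjusted p = 2.40e-11), the smallest p of the 78 members.

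Its paralogs in the A/B group changed less. Hnrnpa3 averaged 232.8 ± 20.4 CPM at day 8 and 344.2 ± 20.7 CPM at day 0, a 1.48-fold fall. Hnrnpa2b1 averaged 327.3 ± 33.4 CPM at day 8 and 415.5 ± 21.6 CPM at day 0, a 1.27-fold fall. Per transcript length, Hnrnpa1 averaged 125.4 ± 10.3 TPM at day 8 and 296.9 ± 18.3 TPM at day 0, and Hnrnpa2b1 362.3 ± 39.4 TPM at day 8 and 417.6 ± 40.5 TPM at day 0. Hnrnpa1 thus had a lower mean than Hnrnpa2b1 at both ages, and the gap was wider at day 8. Hnrnpa0, a relative with a single exon, fell 1.62-fold, to 186.7 ± 9.8 CPM at day 8 against 302.3 ± 32.7 CPM at day 0. Reads of Hnrnpa1 may be shared with its processed copies, whose levels are given among the other observations.

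Hnrnpd, known as AUF1 for its binding to AU-rich elements that mark messages for decay, had 104.0, 93.6, 82.6, 90.0 and 94.3 CPM at day 8, against 155.0, 160.5 and 168.1 CPM (lowest, median, highest) at day 0. All day 8 values lay below all day 0 values. It fell 1.73-fold (log2 −0.79 ± 0.05 SE, edgeR adjusted p = 3.12e-09). Its paralogs followed with smaller falls, Hnrnpab at −0.63 ± 0.06 and Hnrnpdl at −0.52 ± 0.06 (log2, SE). The antisense gene Gm17092, which overlaps Hnrnpd on the other strand, was itself lower (1.97 CPM at day 8 and 3.30 CPM at day 0 on average), and whether counting used the strand is not stated.

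Of the remaining hnRNP genes, Hnrnpm fell by 0.61 on the log2 scale and the others by 0.38 or less. Hnrnpk, which binds C-rich RNA, had the highest TPM of all 79 members. It had 487.8, 492.9, 462.2, 481.3 and 449.6 CPM at day 8, against 588.7, 607.4 and 622.5 CPM (lowest, median, highest) at day 0. The ages did not overlap in CPM, and the fall was 1.28-fold (log2 −0.35 ± 0.04 SE, edgeR adjusted p = 1.04e-06). On the TPM scale its means were 533.5 ± 46.9 at day 8 and 568.1 ± 75.6 at day 0, and the test there gave an adjusted p of 0.487 (limma).

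The G-tract binders of the H/F group had log2 fold changes of −0.38 (Hnrnph1), −0.34 (Hnrnpf), −0.33 (Hnrnph3) and −0.21 (Hnrnph2). Hnrnph2 and Hnrnph3 had overlapping ages in CPM, and their adjusted edgeR p values were 0.00344 and 0.00312. Of the CA-repeat binders, Hnrnpl fell by 0.31 and its paralog Hnrnpll by 0.25. In the scaffold-attachment group, Hnrnpu fell by 0.38, Hnrnpul1 by 0.25 and Hnrnpul2 by 0.16, with adjusted edgeR p values of 5.87e-06, 1.94e-04 and 0.00575. On TPM the value of Hnrnpul2 was 0.01, so that its direction depends on the scale. Hnrnpm averaged 70.7 ± 7.0 CPM at day 8 and 108.0 ± 5.6 CPM at day 0. Hnrnpc, which binds uridine tracts, fell by 0.25, and Hnrnpr by 0.22.

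**Figure D2:**
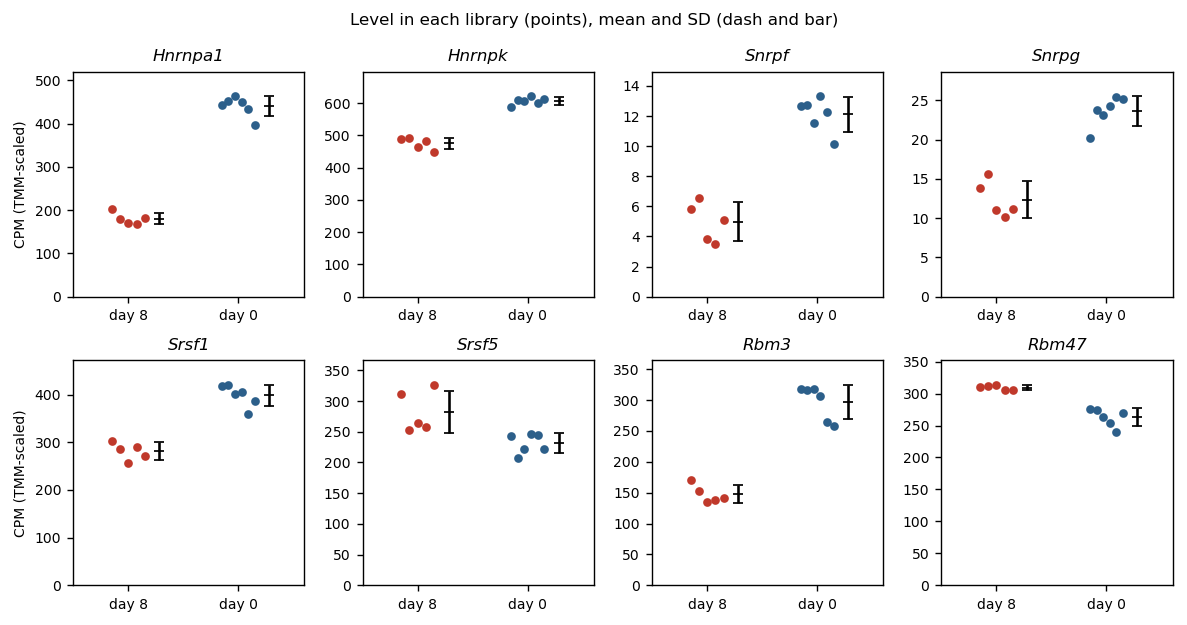
Each point is the TMM-scaled CPM of 1 library, day 8 left of day 0 in each panel, with the mean as a dash and the SD as a bar. The ages are separate in all 8 panels: Srsf5 and Rbm47 are higher at day 8, and the other 6 genes, among them Hnrnpa1 and Snrpf, are lower. Hnrnpa1, Snrpf, Snrpg, Srsf1 and Rbm3 were named for the largest changes, by a rule that required separate ages. Of all tested genes, 40.5% were separate.

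Of the 11 SR genes, 8 fell, Srsf5 rose, and Srsf11 and Srsf12 passed the test in neither direction. Srsf1, long known as a general activator of splicing, had 303.5, 286.1, 256.5, 290.5 and 270.8 CPM at day 8, against 359.8, 403.4 and 420.7 CPM (lowest, median, highest) at day 0. The ages did not overlap, and Srsf1 fell 1.42-fold (log2 −0.50 ± 0.05 SE, edgeR adjusted p = 5.33e-07). Its paralog Srsf9 fell 1.51-fold at a lower level, to 26.0 ± 1.7 CPM at day 8 against 39.4 ± 3.0 CPM at day 0. Srsf3 and Srsf7, the small SR proteins also known as adaptors of mRNA export, fell by 0.42 ± 0.05 and 0.56 ± 0.05 (log2, SE). Srsf2, the classical nuclear speckle protein, averaged 212.9 ± 10.7 CPM at day 8 and 276.7 ± 9.5 CPM at day 0, and Srsf10, known as a splicing repressor when dephosphorylated, fell by 0.41.

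Srsf4, Srsf5 and Srsf6 are close paralogs, and they went different ways. Srsf5 had 311.4, 253.5, 263.9, 257.7 and 326.9 CPM at day 8, against 207.7, 232.3 and 246.9 CPM (lowest, median, highest) at day 0. Libraries 1 and 5 were the highest at day 8, and every day 8 library was above every day 0 library. Srsf5 rose 1.22-fold (log2 0.29 ± 0.07 SE, edgeR adjusted p = 0.00304). Srsf4 averaged 49.1 ± 1.6 CPM at day 8 and 57.5 ± 2.1 CPM at day 0, a fall of 0.23 on the log2 scale, and Srsf6 averaged 217.6 ± 9.6 CPM at day 8 and 252.1 ± 5.6 CPM at day 0, a fall of 0.21. Srsf11, a larger SR-related protein gene, averaged 178.1 ± 12.2 CPM at day 8 against 175.2 ± 9.9 CPM at day 0 (log2 0.02 ± 0.05 SE). Srsf12, with means of 2.08 ± 0.24 CPM at day 8 against 2.56 ± 0.31 CPM at day 0, had a log2 fold change of −0.29 and an edgeR adjusted p of 0.0891.

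Kinases that phosphorylate SR proteins, and their import receptor, moved in both directions. Of the 9 tested of 10 such genes, 2 passed the test as higher and 3 as lower, with a median of −0.01. Among all tested genes, 27.5% were higher and 30.1% lower. On TPM, 2 genes of this list were higher and 0 lower, against 32.3% and 14.7% of all genes tested on that scale. The import receptor gene Tnpo3 fell by 0.18 from counts, with separate ages, and was not called on TPM (−0.02, limma adjusted p = 0.861). Clk3 rose by 0.19, with 56.0 ± 2.6 CPM at day 8 and 49.2 ± 0.7 CPM at day 0, and Clk4 rose by 0.18. Srpk1, the main cytoplasmic SR kinase gene, fell by 0.11 from counts and had a difference of 0.07 on TPM.

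The Rbm genes are named for a shared domain rather than a shared task. From counts, 31 of 36 were fitted below 0, with 20 called lower and 2 higher, while on TPM 20 of 35 were below 0. Rbm3, the cold-inducible RNA-binding protein gene, is known for protecting translation under mild cold. It had 170.7, 152.1, 134.9, 138.0 and 141.3 CPM at day 8, against 258.1, 312.2 and 318.4 CPM (lowest, median, highest) at day 0. Libraries 5 and 6 were the lowest at day 0 and were still above all day 8 libraries. Rbm3 fell 2.02-fold (log2 −1.01 ± 0.07 SE, edgeR adjusted p = 3.81e-08). It had the highest TPM of the family, 182.2 ± 16.1 at day 8 and 331.9 ± 22.2 at day 0. Rbm3 lies on the X chromosome, and it kept its direction and call when Xist entered the fit, as did all 62 called members. Cirbp, the other well-known cold-inducible protein of this type, fell by 0.52, with 50.3 ± 4.4 CPM at day 8 and 72.1 ± 7.9 CPM at day 0. On TPM, Cirbp was not called (−0.27, limma adjusted p = 0.0698).

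Among Rbm genes that act in or beside the spliceosome, the picture was mixed. Rbm8a, the exon junction complex protein Y14, fell 1.49-fold, Rbm17, which contacts the branch site machinery, fell 1.45-fold, and Rbm22, part of the catalytic spliceosome, fell 1.17-fold. On TPM the call of Rbm8a held, while Rbm17 (−0.23, limma adjusted p = 0.112) and Rbm22 (−0.0038, adjusted p = 0.974) were not called. Rbm10 fell by 0.29 from counts and was not called on TPM, while its paralog Rbm5 had a log2 fold change of −0.06 ± 0.05 SE and an edgeR adjusted p of 0.384. Rbm39, the most abundant of these per transcript length after Rbm3, averaged 224.2 ± 16.9 CPM at day 8 and 252.1 ± 17.0 CPM at day 0. Its fall of 0.17 had an edgeR adjusted p of 0.0175, overlapping ages, a difference of 0.03 on TPM, and adjusted p values of 0.0501 to 0.0531 when day 0 library 1, day 8 library 3 or day 8 library 4 was left out. Rbm25 fell by 0.23, and the paralogs Rbm4 and Rbm4b had changes of −0.02 ± 0.06 and −0.11 ± 0.06 (log2, SE), neither called.

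Rbm15 and Rbm15b recruit the adenosine methyltransferase complex to RNA. Rbm15b fell 1.502-fold, to 79.8 ± 3.7 CPM at day 8 against 119.8 ± 2.9 CPM at day 0, and Rbm15 fell 1.17-fold, to 101.3 ± 6.1 CPM at day 8 against 118.5 ± 3.4 CPM at day 0. Genes of nuclear RNA decay, namely Rbm7 of the exosome targeting complex and Rbm26, had changes of −0.03 and −0.04 and passed in neither direction, while Rbm27 fell by 0.20. Rbm19, known for ribosome assembly, fell by 0.34. Other called members with larger falls were Rbm12 (−0.56) and Rbm14 (−0.33), a paraspeckle protein gene. The exons of Rbm12, Rbm14 and Rbm15b overlap another gene on the same strand, so that their counts are less certain. For Rbm15b that gene is Manf, which averaged 49.4 CPM at day 8 and 61.4 CPM at day 0 and was itself lower (−0.31). Of the rest, Rbm12b2, Rbm18, Rbm34 and Rbm41 were called lower with changes between −0.20 and −0.16. Rbm12b1, Rbm6, Rbm28, Rbm33, Rbm42, Rbm43, Rbm45 and Rbm48 passed in neither direction, with changes from −0.20 (Rbm42) to 0.07 (Rbm43).

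Several Rbm genes known from other tissues were present at low levels. Rbm24, known as a splicing regulator of heart and skeletal muscle, had 1.72, 2.06, 1.87, 1.58 and 1.23 CPM at day 8, against 2.59, 3.07 and 3.75 CPM (lowest, median, highest) at day 0. It fell 1.87-fold (log2 −0.90 ± 0.16 SE, edgeR adjusted p = 2.01e-04), with ages that did not overlap. The summed skeletal muscle markers were lower at day 8 as well, at the values given above, and their part in the fall of Rbm24 was not tested. Its paralog Rbm38, a regulator of mRNA stability, averaged 9.66 ± 0.72 CPM at day 8 and 12.7 ± 0.8 CPM at day 0. Rbm46, known from germ cells, averaged 3.60 ± 0.24 CPM at day 8 and 5.82 ± 0.82 CPM at day 0, a 1.61-fold fall, and Rbm20, the titin splicing factor of the heart, was not called (−0.15 ± 0.11, log2, SE).

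The Rbm genes that rose were Rbm47, at a high level, and Rbm11, at a low one. Rbm47, a relative of Rbm46 known as an epithelial cofactor of cytidine-to-uridine RNA editing, had 310.7, 311.1, 314.2, 305.2 and 305.0 CPM at day 8, against 239.2, 266.5 and 276.3 CPM (lowest, median, highest) at day 0. The day 8 libraries lay close together and above all day 0 libraries. It rose 1.18-fold (log2 0.23 ± 0.04 SE, edgeR adjusted p = 1.02e-04). Its exons overlap those of Gm43323 on the same strand, which averaged 5.90 CPM at day 8 and 3.43 CPM at day 0 and was itself higher by 0.78, so that the counts of Rbm47 are less certain. Rbm11, a splicing regulator known from brain and testis, had 2.71, 2.80, 2.74, 2.62 and 2.33 CPM at day 8, against 1.14, 1.496 and 1.81 CPM (lowest, median, highest) at day 0. It rose 1.76-fold with separate ages (log2 0.81 ± 0.15 SE, edgeR adjusted p = 2.02e-04).

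Of 33 other splicing regulators outside these families, 22 were lower and 4 higher at day 8, with a median of −0.23. On TPM 11 were lower and 4 higher. Of all tested genes, 30.1% were lower and 27.5% higher from counts, and 14.7% were lower and 32.3% higher on TPM. The largest falls were those of Rbfox1 (2.82-fold) and Nova1 (2.65-fold), regulators known mainly from neurons and muscle or from neurons, and both at low levels. Rbfox1 averaged 1.19 ± 0.34 CPM at day 8 and 3.35 ± 0.39 CPM at day 0. Ptbp1, the polypyrimidine tract binding protein gene with the highest TPM of the list, fell 1.49-fold. Esrp2, an epithelial splicing regulator, and Mbnl2, known for the switch to adult splicing patterns, both rose by 0.24, with no overlap between the ages. Of their paralogs, Mbnl1 also rose, by 0.12, with overlapping ages, while Mbnl3 fell by 0.88. Esrp1 fell by 0.23 from counts, with overlapping ages, and was not called on TPM (−0.08, limma adjusted p = 0.507). These values are descriptions of lists, with no test of a list as a whole.

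The scale mattered for the smaller changes. TPM gives each gene's share of all transcripts per length, and on that scale the median gene was higher at day 8, by 0.13 on the log2(TPM + 1) scale. Library by library, the summed TPM of the Hnrnp genes was 2559 to 3067 at day 8 and 3283 to 3923 at day 0, and that of the Snrp genes 408 to 444 at day 8 and 548 to 630 at day 0, without overlap. Summed TPM overlapped between the ages for the Srsf genes (913 to 1135 at day 8 and 1032 to 1277 at day 0) and for the Rbm genes (1049 to 1311 at day 8 and 1275 to 1523 at day 0). Day 8 library 2 had the lowest Srsf, Hnrnp and Rbm sums of its age. Within day 0, libraries 1 to 3, those with the most liver transcripts, had Srsf sums of 1032 to 1049 TPM and Hnrnp sums of 3283 to 3422 TPM, against 1207 to 1277 and 3712 to 3923 TPM in libraries 4 to 6. The part of this split in the TPM results was not tested. Of all estimated counts, the 79 members made up 0.788% ± 0.038 at day 8 against 1.05% ± 0.03 at day 0 (SD, n = 5 and 6).

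**Figure D3:**
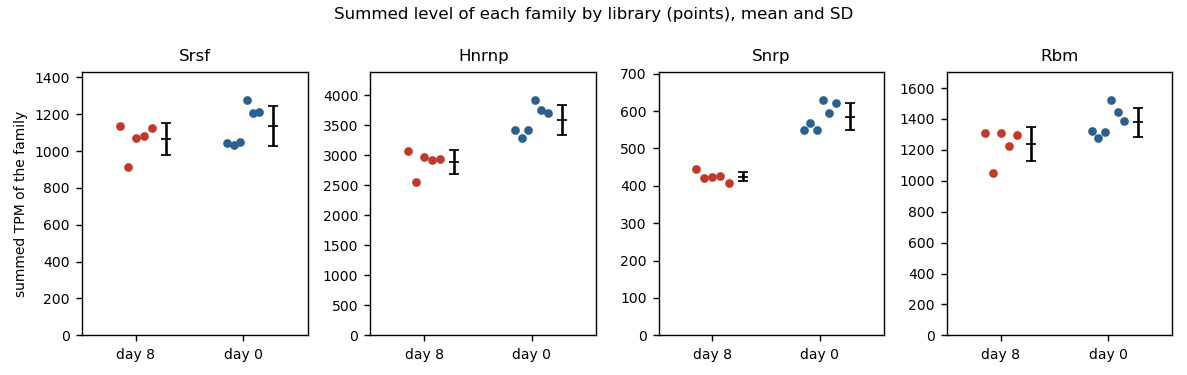
Summed TPM of each family is plotted for each library as a point, day 8 left of day 0, with the mean as a dash and the SD as a bar. Sums of the Hnrnp and Snrp families are separate between the ages, and those of the Srsf and Rbm families overlap.

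Tested on log2(TPM + 1) with limma, 33 of 77 members were lower and 2 higher at day 8, where 14.7% of 16866 genes were lower and 32.3% higher. By family, 10 of 11 Snrp, 11 of 20 Hnrnp, 6 of 11 Srsf and 6 of 35 Rbm members were lower. Family medians on this scale were −0.42 for Snrp, −0.24 for Hnrnp, −0.20 for Srsf and −0.02 for Rbm. The 27 called members without a call here were Snrpb, Srsf4, Srsf6, Hnrnpa2b1, Hnrnpc, Hnrnph2, Hnrnph3, Hnrnpk, Hnrnpl, Hnrnpll, Hnrnpul1, Hnrnpul2, Rbm10, Rbm11, Rbm12b2, Rbm14, Rbm15, Rbm17, Rbm18, Rbm19, Rbm22, Rbm25, Rbm27, Rbm34, Rbm38, Rbm39 and Rbm41. Of these, Hnrnpul2, Rbm34 and Rbm39 had values above 0, between 0.01 and 0.07, which are below the 0.13 of the median gene. Srsf5 and Rbm47 rose on both scales, while Rbm11, counted among the 27, averaged under the TPM minimum of 1 and was not tested.

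**Figure D4:**
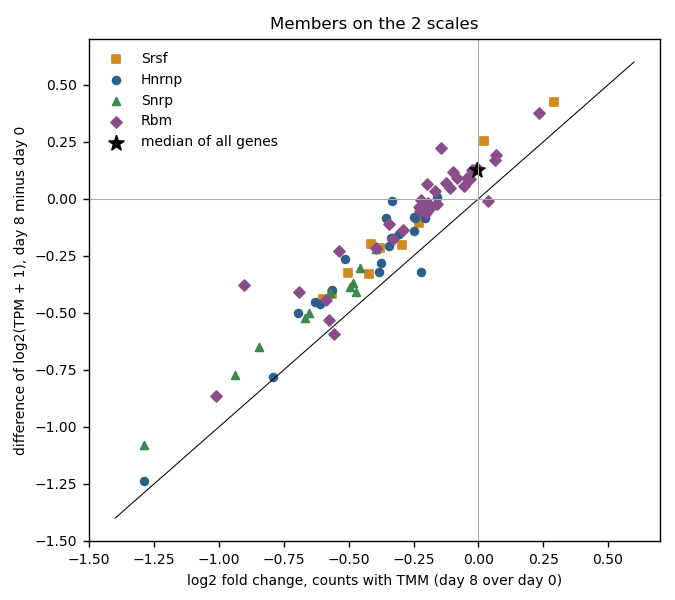
Each member is a point: on the x axis its log2 fold change from counts with TMM scaling, on the y axis its difference in mean log2(TPM + 1), both as day 8 against day 0, with a line of equality. Nearly all points lie above the line, as does the star for the median of all tested genes, at −0.01 on the x axis and 0.13 on the y axis.

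The ratio of estimated counts to TPM in a library follows the effective transcript length that the quantification gave a gene, so that a shift in it can accompany a different mix of isoforms. After centring each library on its median gene, 60 of 13049 genes differed between the ages in this ratio (0.460%, limma, adjusted p under 0.05), and 3 of 75 members did (4%). All 3 were hnRNP genes. Hnrnpr, an RNA-binding protein gene related to Syncrip, had a log2 ratio higher at day 8 by 0.26 ± 0.04 (SE, adjusted p = 0.0403), which is 19.8% more counts per TPM. Hnrnpa1 was higher by 0.11 ± 0.02 (adjusted p = 0.0224), or 8.23%. Hnrnpdl was lower, at −0.09 ± 0.01 (adjusted p = 0.0354). In each of them the day 8 and day 0 libraries did not overlap, which is no separate support, because the same ratio picked them. Snrpa was also separate in this ratio but was not called (limma adjusted p = 0.199). The tables hold no isoform or junction counts, so that which transcripts differ was not analysed here.

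**Figure D5:**
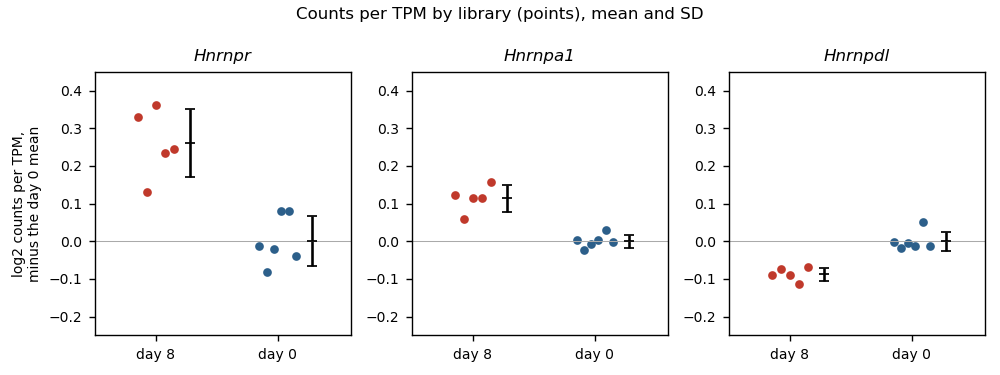
The log2 ratio of estimated counts to TPM, centred on the median gene of each library and set relative to the day 0 mean, is plotted for each library as a point, day 8 left of day 0, with mean and SD. Hnrnpr and Hnrnpa1 are above the day 0 libraries at day 8, and Hnrnpdl is below them. These genes were picked by the test on this ratio.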

How the data were processed

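RNA was profiled in 11 mouse kidney libraries, 5 at day 8 and 6 at day 0, matched to columns by sample titles; replicate numbers follow accession order and pair nothing. Total RNA was extracted on columns and made into stranded, ribosome-depleted libraries, per the labels' protocols. The tables deposited by the authors hold estimated counts and TPM per gene. FastQC, fastp, DRAGEN, Picard and mm10 are named in the submitters' processing notes; their roles, the counting tool and its use of strand are not given in the sources used here. Between 12.1% and 13.1% of the deposited estimated counts in a library were not whole, and all were rounded before testing. The TPM values deposited by the authors summed to 995005 to 998182 per library. No table column was left unmapped. Libraries of the same age all differed by more than sampling noise (chi-square per degree of freedom 4.64 to 41.6 over 25 pairs).

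Counts were tested with edgeR 4.0.16 in R 4.3.3 (filterByExpr, TMM, robust quasi-likelihood fit with age as the only term, Benjamini-Hochberg over all tested genes, threshold 0.05). Standard errors were derived from the quasi-likelihood F statistic. The design was planned for 6 against 6 libraries and run on 5 against 6. The test was also run on simulated counts in which few genes changed, so that this run does not check the scaling for these data. TPM was tested as log2(TPM + 1) with limma 3.58.1 where a gene's mean TPM reached 1. Counts per TPM were compared with limma for genes with a mean count of at least 100, a mean TPM of at least 0.5 and no 0 in any library, a step added after seeing the data. The depth of 18222170 to 24428652 counts leaves members under a few CPM with wide errors. Positions come from GENCODE release 21 on GRCm38, and motifs were sought in RefSeq promoter windows. Alternatives tried included limma-voom and DESeq2 1.42.0, further scalings and low-count filters, pseudocounts of 1 and 0.1, an adjusted p of 0.01, Xist as a covariate, leaving out each library, and leaving out day 8 libraries 3 to 5 (high in fat transcripts) or day 0 libraries 1 to 3 (high in liver transcripts), the last added after seeing the data.

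Members and gene lists were chosen with earlier results of these data known. Values by library or means are given by rule. In each family these are the 4 called members with the largest change and separate ages, and the 2 with the highest TPM. Any member called against its family's majority and fixed sets of paralogs were added. For each other list the rule gave the 2 largest changes among called genes and the highest TPM, and some of these, such as Strap and Clk1, are not described. Other members are given by their log2 fold change. Smn1, Srpk1, Tnpo3, Cirbp, Esrp1, Esrp2, Mbnl1, Mbnl2, Mbnl3, Gucd1 and Mfsd11 were named after their values were seen.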

Additional observations from a re-analysis of the deposited data

Results flagged for a closer look

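In each age, the library farthest from the others was compared with the spread of the group for the 46 members whose levels by library or means are reported, which makes 92 groups. Chance alone marks about 1 group in 20, and 3 were marked. Rbm15 stood at 112.0 CPM in day 8 library 1, above 96.4 to 99.9 CPM in the other day 8 libraries. Rbm39 stood at 219.8 CPM in day 0 library 6, below 252.0 to 267.4 CPM in the other day 0 libraries. Srsf3 stood at 306.6 CPM in day 0 library 4, above 280.0 to 288.3 CPM in the other day 0 libraries.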

How the results depend on the processing

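With DESeq2, limma-voom, RLE scaling, no low-count filter, a CPM filter or Xist as a covariate, all 62 called members were called in the same direction. Scaling to library size alone moved the median gene to −0.07 and gave 63 members lower and 3 higher. On TPM (either pseudocount, mean TPM of at least 1), calls of lower numbered 11 Hnrnp, 6 Rbm and 33 members in all, with 1 Rbm member higher; with no filter they numbered 4 Srsf, 11 Hnrnp, 6 Rbm and 31 in all. On TPM, members fitted below 0 numbered 59 of 77, against 71 of 78 from counts. On these TPM scales the sign turned for the called members Hnrnpul2 (0.0084 to 0.0087), Rbm39 (0.033) and Rbm34 (0.067 on log2(TPM + 1)), and, among members not called, for Rbm4 (0.127 to 0.130), Rbm4b (0.048 to 0.051), Rbm5 (0.055 to 0.056), Rbm6, Rbm7, Rbm12b1, Rbm20, Rbm26, Rbm28, Rbm45 and Rbm48. Rbm4 was also above 0 without day 0 library 5 (0.000962) and without day 8 library 2 (0.034), in a range of −0.048 to 0.034 over single libraries left out. An adjusted p of 0.01 lost 6 calls, all of Rbm genes. With day 8 libraries 3 to 5 left out, only libraries 1 and 2 of that age remained. That fit had 13 Rbm and 17 Hnrnp members lower and lost 10 calls in all, with no sign turned. Leaving out day 0 libraries 1 to 3 lost 6, of Hnrnph2 and 5 Rbm genes. Leaving out 1 library at a time gave 17 to 21 Rbm and 56 to 60 members lower in all, 2 Rbm and 3 in all higher, and, as with every library, 8 Srsf, 20 Hnrnp and 11 Snrp lower and 1 Srsf, 0 Hnrnp and 0 Snrp higher. The cause of these shifts was not tested. No paired analysis was possible because the labels give no replicate numbers. Depth limits Rbm44, Rbm24, Rbm11 and Srsf12 most.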

Other observations

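Of 89 rows with a matching symbol, 10 were left out by the biotype rule or by name. Snrpn, the imprinted neuronal relative of Snrpb, averaged 11.5 ± 0.5 CPM at day 8 against 13.6 ± 0.7 CPM at day 0, with separate ages and a 1.18-fold fall (edgeR adjusted p = 0.00371). Hnrnpa1l2-ps, Hnrnpa1l2-ps2, Rbm3-ps and Srsf3-ps passed the test as lower, as did Hnrnpa1, Rbm3 and Srsf3, while Rbm6-ps1 and Rbm8a2 did not pass the filter. Reads of a gene and its copy may be exchanged. Hnrnpa1l2-ps averaged 0.340 ± 0.099 CPM at day 8 and 1.34 ± 0.24 CPM at day 0, a 3.91-fold fall. Hnrnpa1l2-ps2 averaged 0.757 ± 0.376 CPM at day 8 and 1.65 ± 0.57 CPM at day 0. Their summed level is small beside the 180.1 ± 13.4 CPM at day 8 and 439.9 ± 23.7 CPM at day 0 of Hnrnpa1. Rbm3-ps averaged 1.21 ± 0.23 CPM at day 8 and 2.36 ± 0.36 CPM at day 0, and Srsf3-ps averaged 5.24 ± 1.01 CPM at day 8 and 9.48 ± 2.02 CPM at day 0. Rbm3os, on the strand opposite Rbm3, averaged 0.320 ± 0.047 CPM at day 8 and 0.394 ± 0.129 CPM at day 0 and did not pass the filter.

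The exons of 26 members overlap an exon of a gene on the other strand, and those of 12 members overlap one on the same strand: Hnrnpa3, Hnrnpm, Hnrnpul2, Rbm4, Rbm12, Rbm14, Rbm15b, Rbm26, Rbm27, Rbm42, Rbm47 and Snrpa1. Some partners moved against the member: Gucd1, opposite Snrpd3, averaged 100.3 CPM at day 8 and 84.0 CPM at day 0 and rose by 0.26 on the log2 scale, and Mfsd11, opposite Srsf2, averaged 31.1 CPM at day 8 and 24.2 CPM at day 0 and rose by 0.36.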
